A study of Mus musculus with 16 samples.

Results

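The serpins are a family of protease inhibitors and related proteins, and they were followed here through every protein-coding gene of the count table whose symbol begins with Serpin. The rule took 62 of the 48440 genes in the table, and the letter after Serpin gives the clade. Clade A held 24 genes, clade B 27, clade E 3, clades F and I 2 each, and clades C, D, G and H 1 each. Of the 62, 34 had enough counts to be tested, and 28 did not. A further 7 Serpin entries of pseudogene types were not members.

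Whole ear skin of B6 mice was sequenced in 4 groups of 4 mice. HFD_PMA mice had eaten a high-fat diet for 8 weeks and received PMA at 200 ng per ear, with the skin taken 24 h afterwards. PMA is a phorbol ester, an irritant that switches on protein kinase C. ND_PMA mice had eaten the normal diet (ND) and received PMA. HFD_cont mice had eaten the high-fat diet and are labelled non-treated, and ND_cont mice had eaten the normal diet and are labelled non-treated. Whether the non-treated ears received the solvent of PMA, and the age of the mice, are not given in the labels used here. Levels are read counts scaled to library size (CPM) in whole tissue, so fewer cells of a type and less RNA per cell cannot be told apart. Values given with an SE are log2 fold changes, of the first-named group over the second, from 1 edgeR fit of all 16 libraries, called at an adjusted p below 0.05 over all genes tested.

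Serpins act by a trap. A loop exposed at the end of the protein, the reactive-centre loop, is offered to a protease, and once it is cut the serpin refolds and carries the distorted enzyme with it. Most clade A serpins are secreted and circulate in plasma, many of them from liver, whereas clade B serpins lack a classical signal peptide, stay mostly inside cells and are rich in stratified epithelium such as epidermis. Some members do not inhibit proteases, among them Serpinb5 (maspin), Serpinf1 (pigment epithelium-derived factor) and Serpinh1 (Hsp47), a chaperone of collagen in the endoplasmic reticulum. In the mouse several branches, such as Serpina1, Serpina3, Serpinb3, Serpinb6 and Serpinb9, were expanded by gene duplication relative to human.

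Libraries held between 7739487 and 15571389 counts, and Serpin genes took between 0.324% and 0.410% of them. The sum of 8 genes taken as a check of the PMA response lay between 4423 and 9341 CPM in HFD_PMA and between 2646 and 4576 CPM in ND_PMA, against 265 to 739 CPM in HFD_cont and 78.3 to 298 CPM in ND_cont. Hair follicle genes stood high in 3 libraries, with summed levels of 2951 CPM in HFD_PMA replicate 1 and of 2318 and 1650 CPM in HFD_cont replicates 1 and 2. Library names fall into 2 series, one with the ND_cont libraries and HFD_cont replicate 1, the other with the remaining 11, so neither series holds both ND_PMA and ND_cont libraries. HFD_cont alone has libraries of both, so a covariate for the series rests on HFD_cont replicate 1 against the other HFD_cont libraries. Of the hepatocyte markers, Apoa1, Ttr and Fgb were at 0 in every library, and the summed list did not pass 3.54 CPM in any.

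By level per length, the serpins of this skin were mainly those of epidermal clade B. Serpinb5 led with 338 CPM per kilobase over the 16 libraries, followed by Serpinb2, the urokinase inhibitor also called plasminogen activator inhibitor type 2, with 169, Serpinb3b with 144, Serpinb7 with 131 and the C1 inhibitor Serping1 with 125 CPM per kilobase. Serpinb5 led in each group, but the gene after it differed: it was Serpinb2 in HFD_PMA (241) and ND_PMA (170.0), and Serpinb7 in HFD_cont (158) and ND_cont (169.8 CPM per kilobase). Clade B as a whole summed to 2862 ± 169.5 CPM in HFD_PMA, 2332 ± 555 in ND_PMA, 2576 ± 132 in HFD_cont and 2365 ± 229 in ND_cont (SD, n = 4 each). Clade A summed to 323 ± 64.0, 496 ± 52.5, 436 ± 33.7 and 481 ± 65.0 CPM in the same 4 groups. The plot of levels by clade shows 33 of the tested genes.

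**Figure D1:**
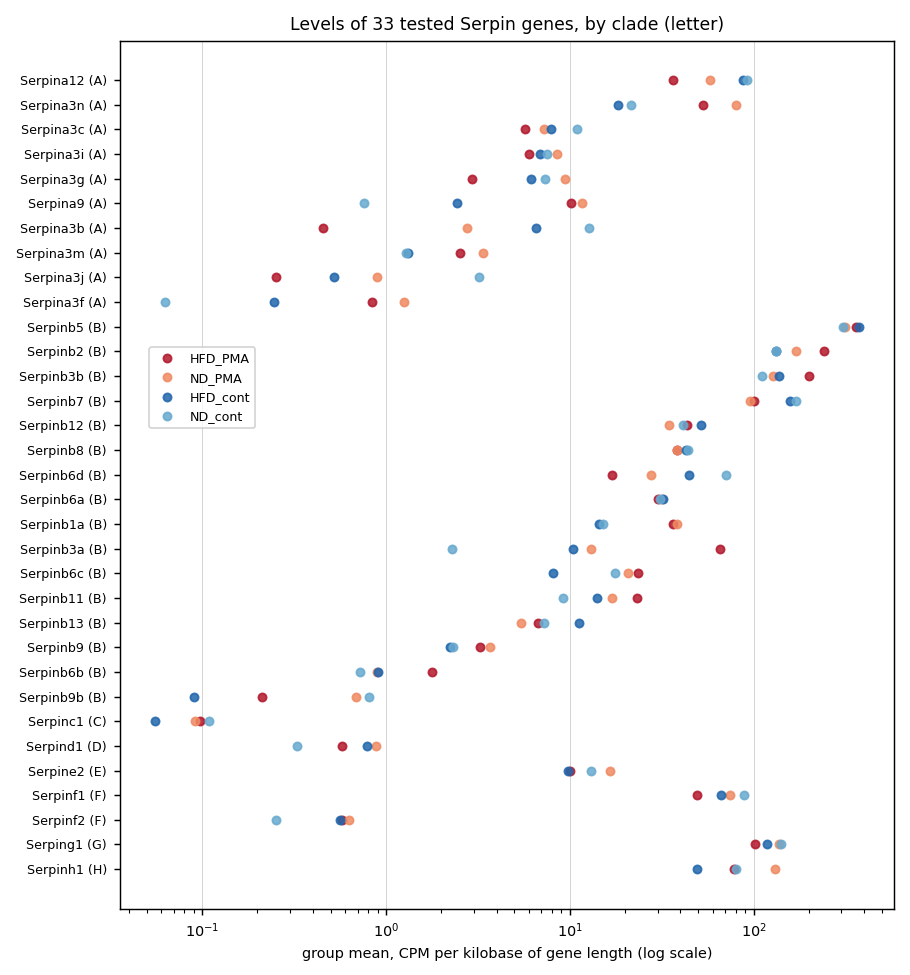
Mean level of 33 tested Serpin genes in each group, in CPM per kilobase of gene length on a log axis, with genes ordered by clade letter and then by level; each point is the mean of 4 libraries. Serpinb5 (338 CPM per kilobase over the 16 libraries) lies furthest right in every group, and the HFD_PMA point of Serpinb3a lies right of its other 3.

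PMA moved serpins in both directions on both diets. In HFD mice, 12 of the 34 tested members were called by edgeR. They were 8 higher (Serpina3n, Serpina9, Serpinb1a, Serpinb2, Serpinb3a, Serpinb3b, Serpinb6c and Serpinh1) and 4 lower (Serpina12, Serpina3b, Serpina3g and Serpinb7). Of all 17604 genes tested, 11.9% were called, 7.34% higher and 4.60% lower. In ND mice, 10 were called. They were 7 higher (Serpina3f, Serpina3n, Serpina9, Serpinb1a, Serpinb3a, Serpinb11 and Serpinh1) and 3 lower (Serpina12, Serpina3b and Serpinb7). Of all genes, 12.9% were called, 8.96% higher and 3.99% lower. Libraries of the groups did not overlap for 11 members in HFD mice, 8 higher and 3 lower, beside 18.8% of all genes, 10.8% higher and 7.93% lower. In ND mice they did not overlap for 12, 8 higher and 4 lower, beside 16.8% of all genes, 10.6% higher and 6.25% lower. The median log2 fold change over the tested members was 0.03 in HFD mice and 0.22 in ND mice, against -0.02 and 0.00 over all genes tested. Without the 3 libraries high in hair genes, 7 members were called in HFD mice. With the library series as a covariate, which takes up much of the PMA contrast in ND mice, the 2 members called there were Serpina9 and Serpina3n.

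**Figure D2:**
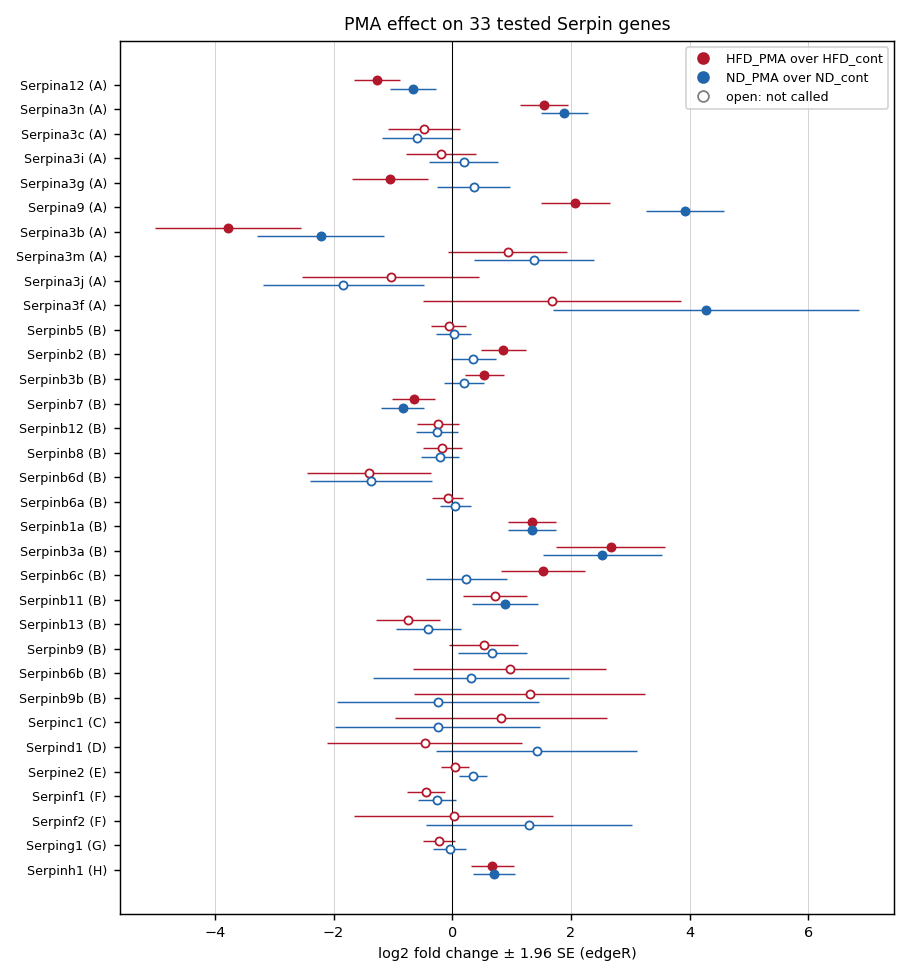
PMA effect on 33 tested Serpin genes as log2 fold change with its 95% interval, HFD_PMA over HFD_cont (red) and ND_PMA over ND_cont (blue); filled points were called at an edgeR adjusted p below 0.05 over all genes. Serpina9, Serpina3n, Serpinb1a and Serpinb3a lie right of 0 and filled on both diets, and Serpina3b, Serpina12 and Serpinb7 lie left of 0 and filled on both.

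The diet moved fewer serpins. In PMA-treated skin, 6 of the 34 members were called. They were Serpinb3a and Serpinb3b higher in HFD_PMA, and Serpine2, Serpina3g, Serpina3b and Serpinh1 lower. Of all genes, 2.20% were called, 0.943% higher and 1.26% lower. In untreated skin, 4 were called. They were Serpina9 and Serpinb3a higher in HFD_cont, and Serpinh1 and Serpina3j lower. Of all genes, 3.93% were called, 2.87% higher and 1.06% lower. Libraries of the groups did not overlap for 7 members in PMA-treated skin, 2 higher and 5 lower, beside 8.63% of all genes, 3.93% higher and 4.71% lower. In untreated skin they did not overlap for 7, 2 higher and 5 lower, beside 12.6% of all genes, 7.18% higher and 5.46% lower. The median over tested members was -0.20 in PMA-treated and -0.06 in untreated skin, against -0.03 and -0.02 over all genes. These counts lean on single libraries. Leaving out HFD_PMA replicate 1 or 2 left 3 or 2 members called in PMA-treated skin. Without the 3 libraries high in hair genes, 3 were called there and 0 in untreated skin, where 8 members had an unadjusted edgeR p below 0.05 and the same fit called 171 genes in all. The share of all genes under that unadjusted cut was not counted for this fit. In the fit of all 16 libraries, 10 members and 16.5% of all genes passed it in untreated skin. With the library series as a covariate, Serpina9 alone was called in untreated skin. The series of the ND_cont libraries holds 1 HFD_cont library, too few for a comparison within it.

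**Figure D3:**
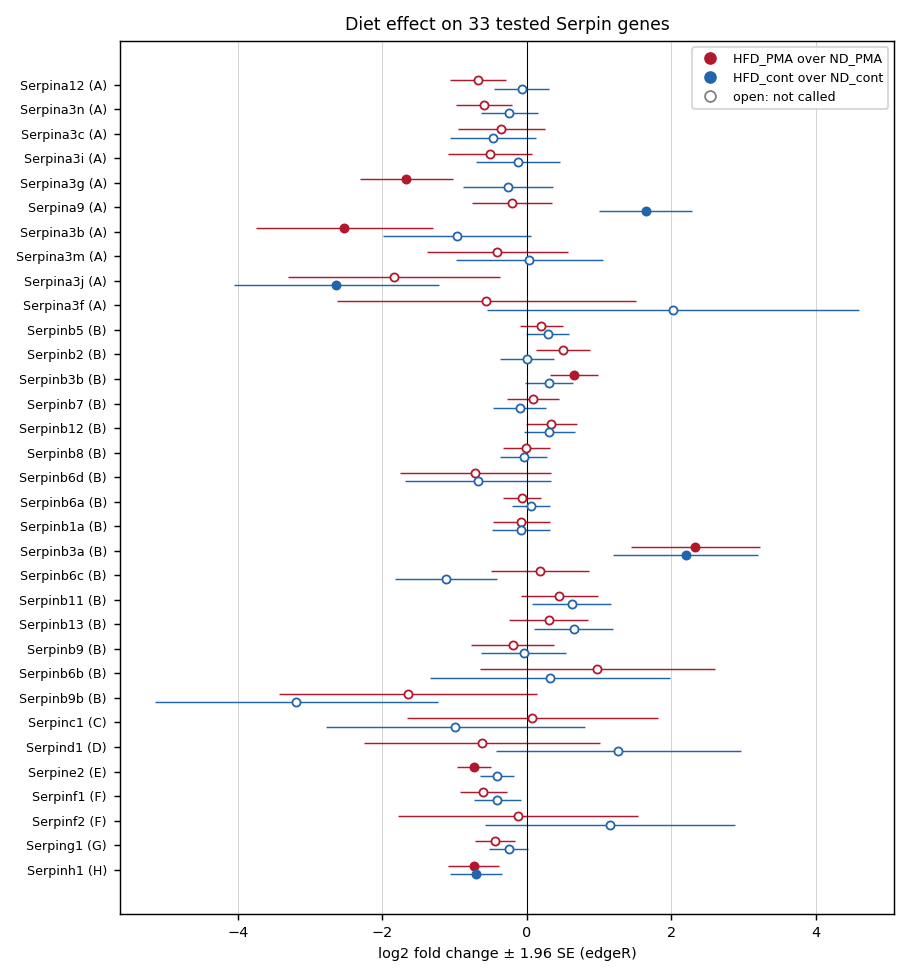
Diet effect on 33 tested Serpin genes as log2 fold change with its 95% interval, HFD_PMA over ND_PMA (red) and HFD_cont over ND_cont (blue); filled points were called. Serpinb3a lies right of 0 and Serpinh1 left of 0, filled, in both states of the skin.

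Whether the PMA effect differed between diets was tested as the interaction, and by edgeR it called 0 of 34 members, where 0.00568% of all genes (1 gene) were called. At an unadjusted p below 0.05 there were 4 members, beside 4.63% of all genes. Serpina9 came nearest, with an interaction of -1.85 ± 0.43 SE, edgeR adjusted p = 0.306. It was called by DESeq2 (-1.83, adjusted p = 0.0292). With the library series as a covariate edgeR also called it, at -2.71. That covariate rests on HFD_cont replicate 1, which had the most Serpina9 of its group (16.1 CPM), so that fit is no separate support for the interaction. The other members were Serpina3g at -1.41 ± 0.45 SE, edgeR adjusted p = 0.785, Serpinb6c at 1.30 ± 0.50 SE, edgeR adjusted p = 0.983 and Serpina12 at -0.60 ± 0.28 SE, edgeR adjusted p = 0.999. For the members that were called on one diet and not on the other, a difference between the diets was therefore not shown.

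Serpinb3a and Serpinb3b are mouse counterparts of the human squamous cell carcinoma antigens, of which SERPINB3 inhibits papain-like cathepsins and SERPINB4 chymotrypsin-like proteases. Serpinb3a (chromosome 1, 107045587-107052303, minus strand, 8 exons, GRCm38) and Serpinb3b (chromosome 1, 107153940-107278361, minus strand) share 92.9% of their coding bases. The coding stretches of their reactive-centre loops, 29 codons from the hinge (codons 336 to 364 of 387, from GENCODE M21 transcripts), are shown because the loop decides which protease is bound and because reads are told apart by such differences; capitals mark the 4 of 87 bases at which they differ.
Serpinb3a: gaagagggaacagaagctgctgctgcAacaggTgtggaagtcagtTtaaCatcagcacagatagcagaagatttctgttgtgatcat
Serpinb3b: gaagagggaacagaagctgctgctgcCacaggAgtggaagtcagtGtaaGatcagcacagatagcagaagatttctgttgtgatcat
Of the 151-base windows in the Serpinb3a transcripts, 3.33% were also found in another gene, the pseudogene Gm8080, and none were shared with Serpinb3b.

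Serpinb3a had 123, 147, 98.2 and 62.2 CPM in HFD_PMA, against 14.4, 14.9, 30.99 and 24.98 CPM in ND_PMA. Untreated ears had 22.4, 22.6, 13.9 and 8.905 CPM in HFD_cont, against 5.55, 5.11, 0.192 and 4.04 CPM in ND_cont. Every HFD library lay above every ND library of the same treatment, and every PMA library above every untreated library of the same diet. In PMA-treated skin HFD_PMA was higher with a log2 fold change of 2.34 ± 0.46 (SE; edgeR adjusted p = 0.0137), and in untreated skin HFD_cont was higher with a log2 fold change of 2.20 ± 0.51 (SE; edgeR adjusted p = 0.0230). PMA raised it in HFD mice with a log2 fold change of 2.67 ± 0.47 (SE; edgeR adjusted p = 0.00119) and in ND mice with a log2 fold change of 2.53 ± 0.51 (SE; edgeR adjusted p = 0.00289). The ND call for PMA ended with the library series as a covariate. Without the 3 libraries high in hair genes, the diet difference in untreated skin was 1.65 with an edgeR adjusted p of 0.207, and 2 of the fits that left out 1 library ended each of the diet calls. With the library series as a covariate, that difference was 2.60 with an edgeR adjusted p of 0.0926.

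Serpinb3b was the more abundant of the pair. It had 326, 329, 353 and 347 CPM in HFD_PMA, against 204, 126, 251 and 282 CPM in ND_PMA. Untreated ears had 221, 242, 241 and 226 CPM in HFD_cont, against 183, 181, 157 and 230.2 CPM in ND_cont. The HFD_PMA libraries lay close together and above all others. The log2 fold change of 0.65 ± 0.17 (SE; edgeR adjusted p = 0.0493) between the diets in PMA-treated skin and the log2 fold change of 0.54 ± 0.17 (SE; edgeR adjusted p = 0.0424) for PMA in HFD mice both stood near the threshold, and 7 and 11 of the fits that left out 1 library ended these calls. Without the 3 libraries high in hair genes, they were 0.72 (edgeR adjusted p = 0.101) and 0.55 (edgeR adjusted p = 0.233). Summed over Serpinb3a to Serpinb3d, which a read given to the wrong one of the 4 does not change, the level was 447 ± 28.8 CPM in HFD_PMA and 238 ± 74.2 in ND_PMA, and 250 ± 13.1 in HFD_cont and 192 ± 31.7 in ND_cont (SD, n = 4 each). Summed suprabasal keratinocyte markers moved with the diet as well, lying between 8414 and 10619 CPM in HFD_PMA and 5914 and 7735 in ND_PMA. In untreated ears they lay between 10340 and 13583 CPM in HFD_cont and 6459 and 7369 in ND_cont. With PMA in HFD mice 5 of the 8 markers fell and none rose, whereas Serpinb3a and Serpinb3b rose. In ND mice 1 marker rose with PMA and none fell. The part of these cells in the Serpinb3 values was not tested.

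**Figure D4:**
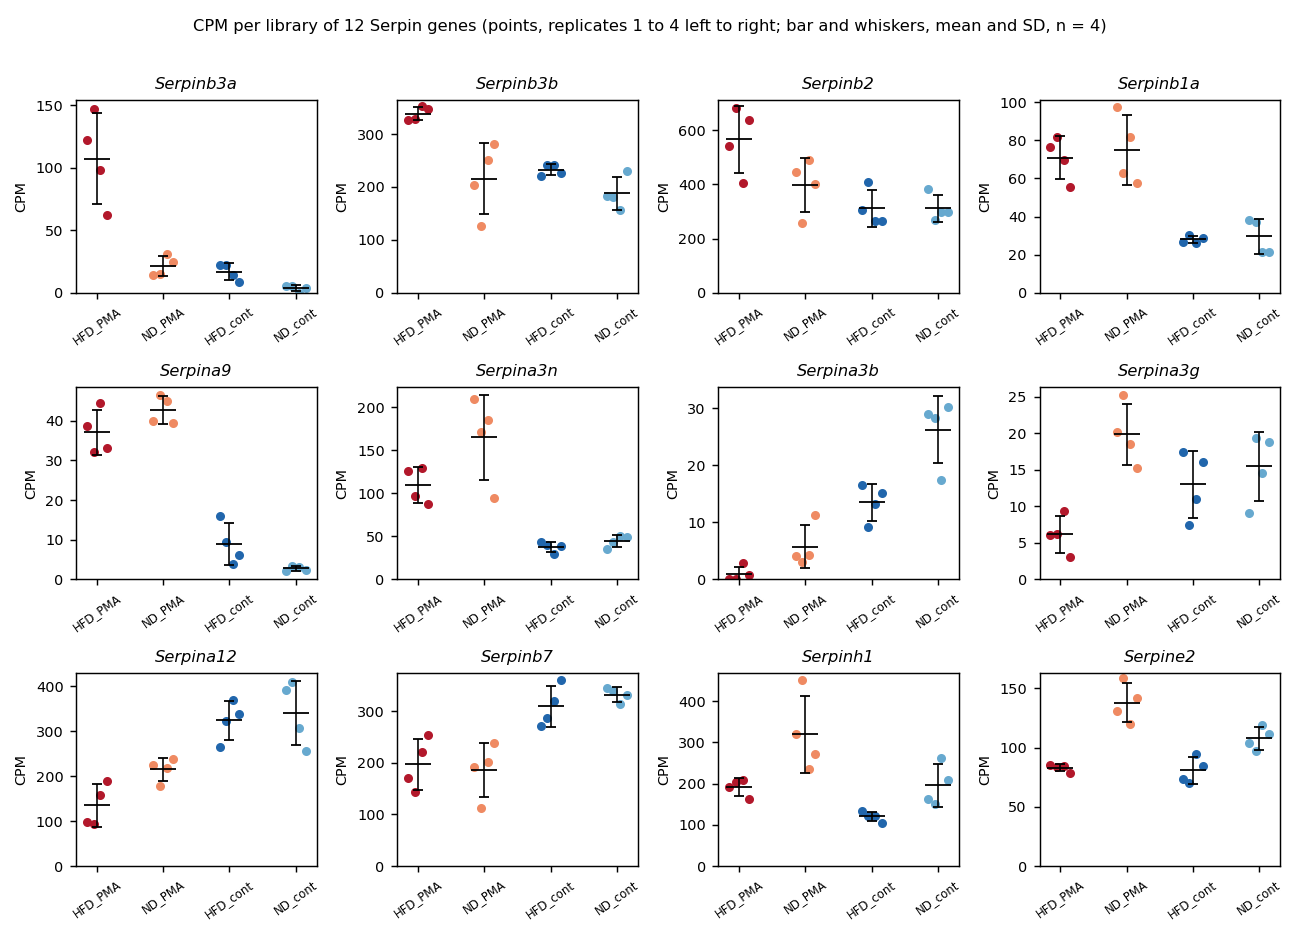
CPM of 12 Serpin genes in each of the 16 libraries, on linear axes from 0, with points for replicates 1 to 4 of each group, a bar at the mean and whiskers of 1 SD (n = 4). Serpinb3a lies between 62.2 and 147 CPM in HFD_PMA and at or below 31.0 CPM elsewhere, whereas Serpina3b is highest in ND_cont.

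Among the other clade B genes of chromosome 1, Serpinb2, Serpinb7 and Serpinb11 were called with PMA and Serpinb5, Serpinb8, Serpinb12 and Serpinb13 were not. Serpinb2 had 541, 682, 405 and 639 CPM in HFD_PMA, against 307, 410.3, 264 and 265 CPM in HFD_cont. On the normal diet it had 447, 259, 489 and 402 CPM in ND_PMA, against 383, 268, 298 and 298 CPM in ND_cont. PMA raised it in HFD mice with a log2 fold change of 0.86 ± 0.19 (SE; edgeR adjusted p = 0.00514), although the lowest HFD_PMA library lay just under the highest HFD_cont library. In ND mice the value was 0.36 ± 0.19 SE, edgeR adjusted p = 0.258, not called. Serpinb2 shares 291 exon bases with the pseudogene entry of Serpinb10, which had 437 counts over the 16 libraries. Serpinb7 (megsin), whose human counterpart is mutated in a palmoplantar keratosis, had 170.3, 144, 221 and 254 CPM in HFD_PMA, against 272, 286, 321 and 361 CPM in HFD_cont. In ND mice it had 192, 113, 201 and 238 CPM in ND_PMA, against 345, 339, 313 and 332 CPM in ND_cont. It fell with PMA on both diets, with log2 fold changes of -0.65 ± 0.19 SE, edgeR adjusted p = 0.0250 in HFD mice and -0.84 ± 0.19 SE, edgeR adjusted p = 0.00437 in ND mice, with all PMA libraries below all untreated ones of the same diet. The HFD value was -0.73 without the 3 libraries high in hair genes (edgeR adjusted p = 0.107), and the ND call ended with the library series as a covariate. Serpinb11, an epithelial serpin, had 50.3, 64.5, 40.9 and 46.1 CPM in HFD_PMA, against 34.5, 33.3, 29.6 and 25.4 CPM in HFD_cont. On the normal diet it had 33.8, 21.2, 55.99 and 36.7 CPM in ND_PMA, against 31.3, 22.5, 13.3 and 12.8 CPM in ND_cont. It rose in ND mice with a log2 fold change of 0.89 ± 0.28 (SE; edgeR adjusted p = 0.0408), a call that ended in 19 of 25 alternatives, and stood at 0.72 ± 0.28 SE, edgeR adjusted p = 0.103 in HFD mice.

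Serpinb5, the most abundant serpin, had 884, 951, 1023 and 1095 CPM in HFD_PMA, against 963, 533, 1008 and 932 CPM in ND_PMA. In untreated ears it had 958, 1093, 1041 and 1035 CPM in HFD_cont, against 898, 967, 747 and 762 CPM in ND_cont. The libraries overlapped in every comparison, with ND_PMA replicate 2 far below the rest of its group, and the 95% intervals of its 4 log2 differences together ran from -0.36 to 0.59. Serpinb12, an inhibitor of trypsin-like proteases, had 120.0, 100.1, 107 and 109 CPM in HFD_PMA, against 83.7, 55.96, 104 and 102 CPM in ND_PMA. Untreated ears had 132, 149.5, 121 and 111 CPM in HFD_cont, against 116, 133, 82.3 and 82.6 CPM in ND_cont. Serpinb8, whose human counterpart is linked to a peeling skin disease, had 189, 164, 205 and 174 CPM in HFD_PMA, against 193, 104, 224 and 213 CPM in ND_PMA. Untreated ears had 221, 200.0, 211 and 190.3 CPM in HFD_cont, against 212, 223, 186 and 227 CPM in ND_cont. Neither was called in any comparison, and nor was Serpinb13, an inhibitor of cathepsin L.

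Promoters of this chromosome 1 cluster are shown because phorbol esters activate the transcription factor AP-1, whose motif TGANTCA (its own reverse complement, so both strands are covered) was looked for in the 250 bases before to 50 after each RefSeq gene start (GRCm38.p6). It was found in 6 of the 8 tested clade B genes of chromosome 1 that have an entry (Serpinb2, Serpinb5, Serpinb7, Serpinb8, Serpinb11 and Serpinb12) and in 0 of the 20 other tested Serpin genes with one. Over all 53 Serpin genes with an entry it was found in 11, 4 of them copies of Serpina1, and over all 27025 symbols in 8.97%. Serpinb3a and Serpinb3b, also called with PMA, have an entry without the motif, and the motif holders Serpinb5, Serpinb8 and Serpinb12 were not called with PMA. Capitals mark the motif in the 3 of the 6 motif holders that were called with PMA, all on the plus strand, for Serpinb2 at chr1:107511173-107511472, for Serpinb7 at chr1:107422439-107422738 and for Serpinb11 at chr1:107362064-107362363.
Serpinb2: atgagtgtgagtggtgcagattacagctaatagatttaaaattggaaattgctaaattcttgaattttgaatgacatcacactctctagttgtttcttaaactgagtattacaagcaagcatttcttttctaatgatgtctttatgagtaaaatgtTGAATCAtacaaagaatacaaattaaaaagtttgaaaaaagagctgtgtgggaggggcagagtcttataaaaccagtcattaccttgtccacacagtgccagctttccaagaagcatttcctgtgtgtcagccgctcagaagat
Serpinb7: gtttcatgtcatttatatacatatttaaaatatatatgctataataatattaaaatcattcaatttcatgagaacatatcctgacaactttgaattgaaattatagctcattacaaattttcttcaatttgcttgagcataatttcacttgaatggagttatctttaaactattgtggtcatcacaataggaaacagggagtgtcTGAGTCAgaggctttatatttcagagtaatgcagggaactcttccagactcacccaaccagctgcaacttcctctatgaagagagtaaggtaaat
Serpinb11: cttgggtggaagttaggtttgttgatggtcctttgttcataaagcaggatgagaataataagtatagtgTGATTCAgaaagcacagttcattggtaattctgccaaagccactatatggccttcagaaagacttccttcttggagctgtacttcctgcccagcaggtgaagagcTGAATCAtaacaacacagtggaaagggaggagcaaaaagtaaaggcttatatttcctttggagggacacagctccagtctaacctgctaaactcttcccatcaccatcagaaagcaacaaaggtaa
Members with the motif were found in each class of PMA response. It was held by 1 of the 6 members higher with PMA in HFD mice that have an entry, 1 of the 4 lower and 4 of the 18 not called. A STAT motif (TTCNNNGAA) was found in 11 of 62 Serpin promoter entries, against 8.30% of all 32851, and a heat shock motif (GAANNTTC) in 6 of 62, against 7.86%; AP-1 was in 12 of 62, against 7.81%. A match is a stretch of letters, not a bound site.

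Clade B genes of chromosome 13 include the Serpinb1, Serpinb6 and Serpinb9 genes. Serpinb1a (chromosome 13, 32842092-32851185, minus strand), a mouse counterpart of the human inhibitor of neutrophil elastase, had 76.3, 81.6, 69.9 and 55.5 CPM in HFD_PMA, against 26.8, 30.3, 26.3 and 28.6 CPM in HFD_cont. In ND mice it had 97.3, 62.7, 81.7 and 57.7 CPM in ND_PMA, against 38.1, 37.3, 21.6 and 21.2 CPM in ND_cont. Every PMA library lay above every untreated library of its diet, with a log2 fold change of 1.34 ± 0.21 (SE; edgeR adjusted p = 0.000259) in HFD mice and 1.34 ± 0.21 SE, edgeR adjusted p = 0.000172 in ND mice. Neutrophil markers rose beside it: their sum lay between 326 and 1271 CPM in HFD_PMA and 39.6 and 67.6 in HFD_cont, and between 100.3 and 324 in ND_PMA and 27.9 and 54.9 in ND_cont. Of the 7 markers summed, 6 were tested. All 6 rose with PMA in HFD mice, and 4 of 6 in ND mice (Csf3r, Cxcr2, S100a8 and S100a9). The part of neutrophil RNA in the Serpinb1a values was not tested. Between the diets with PMA, Serpinb1a stood at -0.08 ± 0.20 SE, edgeR adjusted p = 0.903. Its ND call for PMA ended with the library series as a covariate.

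Serpinb6c had 24.7, 44.6, 35.9 and 25.7 CPM in HFD_PMA, against 9.64, 9.12, 14.96 and 11.5 CPM in HFD_cont. On the normal diet it had 25.5, 14.9, 33.95 and 41.3 CPM in ND_PMA, against 21.2, 46.7, 18.5 and 11.6 CPM in ND_cont. It rose with PMA in HFD mice with a log2 fold change of 1.53 ± 0.36 (SE; edgeR adjusted p = 0.00776), and without the 3 libraries high in hair genes the value was 1.42 with an edgeR adjusted p of 0.118. In ND mice the libraries overlapped (0.23 ± 0.35 SE, edgeR adjusted p = 0.743), with ND_cont replicate 2 as the highest of all 16. Serpinb6a, an inhibitor of cathepsin G, had 134, 162, 185 and 176 CPM in HFD_PMA, against 198, 157, 173 and 161 CPM in ND_PMA. Untreated ears had 135, 192, 167 and 198 CPM in HFD_cont, against 172, 169, 183 and 143 CPM in ND_cont. It was called in no comparison, and its exons overlap Nqo2, Ripk1 and 1110046J04Rik on the other strand. Serpinb6d had 8.18, 10.1, 25.4 and 55.9 CPM in HFD_PMA, against 63.1, 45.6, 74.1 and 77.8 CPM in HFD_cont. In ND mice it had 32.8, 29.8, 48.3 and 50.6 CPM in ND_PMA, against 97.9, 173, 108 and 37.6 CPM in ND_cont. The log2 fold changes for PMA were -1.41 ± 0.54 SE, edgeR adjusted p = 0.114 and -1.37 ± 0.53 SE, edgeR adjusted p = 0.111, neither called. Of the other tested clade B genes of chromosome 13, Serpinb9, the granzyme B inhibitor, Serpinb6b and Serpinb9b were called in no comparison.

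The Serpina3 genes lie side by side on chromosome 12, and these mouse copies are known to have diverged strongly in the reactive-centre loop. Serpina3n, a secreted acute-phase inhibitor related to human alpha-1-antichymotrypsin, Serpina3b, and Serpina3g, known in mouse leukocytes as an inhibitor of lysosomal cathepsins, went different ways. Their loop stretches (29 codons, GENCODE M21, GRCm38, plus strand) are shown because they are where these genes differ in what they can bind, and no 151-base window of these 3 genes was found in another gene. Capitals mark the bases that differ from Serpina3n, or for Serpina3n from Serpina3b (31 of 87 bases between these 2, and 30 of 87 for Serpina3g).
Serpina3n: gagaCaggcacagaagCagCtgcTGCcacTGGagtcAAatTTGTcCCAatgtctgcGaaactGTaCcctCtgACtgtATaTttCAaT
Serpina3b: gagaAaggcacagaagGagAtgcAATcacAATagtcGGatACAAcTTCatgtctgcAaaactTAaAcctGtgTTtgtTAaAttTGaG
Serpina3g: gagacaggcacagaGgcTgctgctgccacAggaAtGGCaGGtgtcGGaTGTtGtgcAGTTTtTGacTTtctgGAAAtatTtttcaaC
Among tested members only Serpina3m, with 0.265% of its windows in Serpina3k, and Serpinb3a shared any window with another gene.

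Serpina3n (chromosome 12, 104406729-104414329, plus strand) had 126, 96.6, 129.7 and 87.4 CPM in HFD_PMA, against 43.2, 39.7, 29.5 and 38.7 CPM in HFD_cont. On the normal diet it had 209, 171, 186 and 94.9 CPM in ND_PMA, against 35.5, 43.1, 50.4 and 49.2 CPM in ND_cont. It rose with PMA on both diets, with a log2 fold change of 1.54 ± 0.20 (SE; edgeR adjusted p = 6.00e-05) in HFD mice and 1.89 ± 0.21 SE, edgeR adjusted p = 4.43e-06 in ND mice, and all PMA libraries lay above all untreated ones of the same diet. Both calls held in every alternative. The library series covariate rests on HFD_cont replicate 1, so holding with it does not separate PMA from the series in ND mice. Between the diets its level was -0.59 ± 0.20 SE, edgeR adjusted p = 0.132 on the log2 scale in PMA-treated skin, which was not called.

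Serpina3b (chromosome 12, 104127996-104139545, plus strand) moved the other way. It had 0.0963, 0.0795, 2.82 and 0.752 CPM in HFD_PMA, against 16.6, 9.12, 13.1 and 15.2 CPM in HFD_cont. In ND mice it had 4.06, 3.09, 4.33 and 11.3 CPM in ND_PMA, against 29.004, 28.3, 17.5 and 30.3 CPM in ND_cont. It fell with PMA, with a log2 fold change of -3.78 ± 0.63 (SE; edgeR adjusted p = 0.000506) in HFD mice and -2.22 ± 0.55 SE, edgeR adjusted p = 0.00918 in ND mice, and all PMA libraries lay below all untreated ones of the same diet. Under PMA it was lower in HFD_PMA than in ND_PMA, with a log2 fold change of -2.52 ± 0.62 (SE; edgeR adjusted p = 0.0351), and untreated ears stood at -0.96 ± 0.52 SE, edgeR adjusted p = 0.375, not called though all HFD_cont libraries lay below all ND_cont libraries. In HFD_PMA replicates 1 and 2 it rests on 1 count each, and leaving out 1 library ended the diet call in 7 fits. The ND call for PMA ended with the library series as a covariate. Leaving out the 3 libraries high in hair genes gave a diet value of -2.11 with an edgeR adjusted p of 0.125.

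Serpina3g (chromosome 12, 104236245-104241939, plus strand) had 6.07, 6.28, 9.32 and 3.13 CPM in HFD_PMA, against 20.2, 25.3, 18.6 and 15.3 CPM in ND_PMA. Untreated ears had 17.4, 7.497, 11.04 and 16.1 CPM in HFD_cont, against 9.13, 19.4, 14.5 and 18.9 CPM in ND_cont. The HFD_PMA libraries lay below all ND_PMA libraries, and the 2 untreated groups overlapped. HFD_PMA was lower than ND_PMA with a log2 fold change of -1.67 ± 0.33 (SE; edgeR adjusted p = 0.0113). That call held in every alternative. It was also lower than HFD_cont with a log2 fold change of -1.05 ± 0.33 (SE; edgeR adjusted p = 0.0410), a call that 7 of the fits leaving out 1 library ended. That PMA value was -1.09 without the 3 libraries high in hair genes (edgeR adjusted p = 0.140). In ND mice PMA gave 0.36 ± 0.32 SE, edgeR adjusted p = 0.537. Of 7 macrophage and monocyte markers, Cd163 and Csf1r were lower in HFD_PMA than in ND_PMA and none higher, with a median of -0.66 and summed levels of 636 to 1100.3 CPM in HFD_PMA and 958 to 1378 CPM in ND_PMA. Of 7 dendritic cell markers, Cd209a was lower, with a median of -0.03. For PMA in HFD mice, where Serpina3g was also lower, the macrophage and monocyte markers went the other way. There 4 of the 7 rose (Ccr2, Cd68, Lyz2 and Mrc1) and none fell, with a median of 0.51, and no dendritic cell marker was called. The part of these cells in the Serpina3g values was not tested.

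Low members of the same cluster rest on few counts. Serpina3j had 0.618, 0.232, 0.799 and 2.82 CPM in HFD_cont, against 9.997, 8.797, 1.15 and 7.74 CPM in ND_cont. PMA-treated ears had 0.867, 0.318, 0.235 and 0.752 CPM in HFD_PMA, against 1.66, 0.901, 2.31 and 2.88 CPM in ND_PMA. HFD_cont was lower than ND_cont with a log2 fold change of -2.64 ± 0.72 (SE; edgeR adjusted p = 0.0445), although ND_cont replicate 3 lay inside the HFD_cont range, and 10 of the fits leaving out 1 library ended the call. Leaving out the 3 libraries high in hair genes gave -1.94 (edgeR adjusted p = 0.350), and with the library series as a covariate it was -3.46 (edgeR adjusted p = 0.346). Serpina3f had 2.32, 1.29, 2.095 and 5.76 CPM in ND_PMA, against 0.123, 0, 0 and 0.449 CPM in ND_cont. On the high-fat diet it had 1.64, 0, 4.31 and 1.76 CPM in HFD_PMA, against 0, 0.232, 1.82 and 0.217 CPM in HFD_cont. Its call with PMA in ND mice (4.27 ± 1.32 SE, edgeR adjusted p = 0.0361) rests on 28, 20, 29 and 56 counts in ND_PMA, against 1, 0, 0 and 4 counts in ND_cont. With the library series as a covariate the sign turned (-1.84). That covariate rests on HFD_cont replicate 1, with 0 counts of Serpina3f, against 3, 25 and 2 counts in replicates 2 to 4. The turned sign therefore cannot be read as a result on ND_PMA against ND_cont. Serpina3c, Serpina3i and Serpina3m were tested and not called.

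The 10 Serpina3 members were also summed. The sum was 150.1 ± 30.3 CPM in HFD_PMA and 101 ± 10.4 in HFD_cont, and 238 ± 53.9 in ND_PMA and 137 ± 12.1 in ND_cont (SD, n = 4 each), and the plot of the cluster by library shows the part of each gene. All PMA libraries lay above all untreated ones of the same diet in this sum, as they did for Serpina3n.

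**Figure D5:**
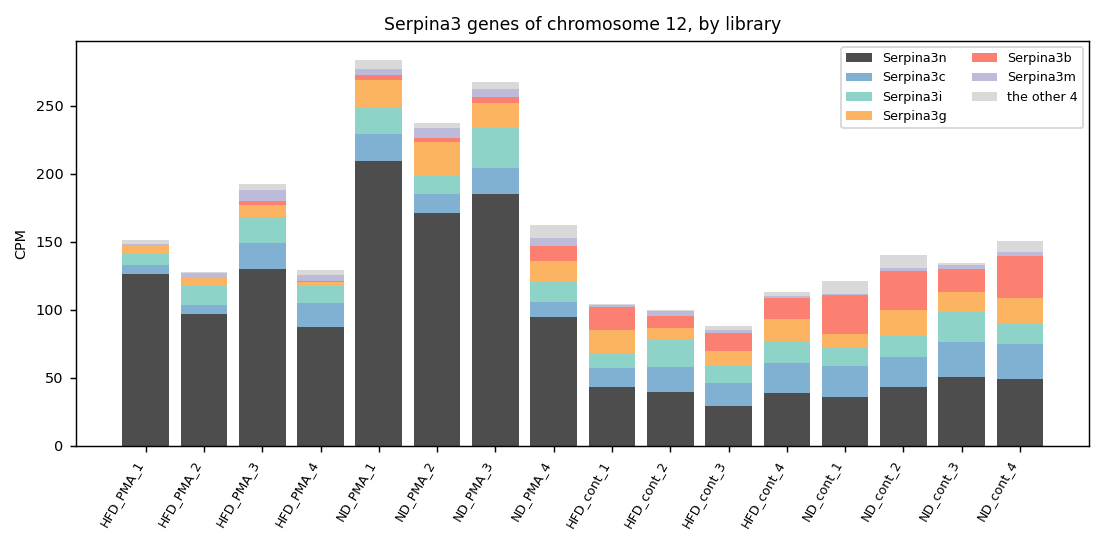
CPM of the Serpina3 genes of chromosome 12 in each library, stacked from 0, with 6 genes shown by colour and the other 4 together in grey. Serpina3n (dark) makes up most of every PMA bar, while Serpina3b (red) averages 0.937 ± 1.29 CPM in HFD_PMA and 26.3 ± 5.91 CPM in ND_cont.

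Near that cluster on chromosome 12 lie Serpina9 and Serpina12. Serpina9 (chromosome 12, 103994743-104013755, minus strand), known in human as a product of germinal centre B cells, had 38.7, 32.2, 44.5 and 33.1 CPM in HFD_PMA, against 16.1, 9.51, 3.85 and 6.19 CPM in HFD_cont. On the normal diet it had 39.98, 46.4, 45.01 and 39.5 CPM in ND_PMA, against 2.098, 3.4999, 3.17 and 2.36 CPM in ND_cont. PMA raised it on both diets, with a log2 fold change of 2.08 ± 0.30 (SE; edgeR adjusted p = 0.000144) in HFD mice and 3.92 ± 0.33 SE, edgeR adjusted p = 1.65e-07 in ND mice, and both calls held in every alternative. In untreated skin HFD_cont was higher than ND_cont with a log2 fold change of 1.65 ± 0.33 (SE; edgeR adjusted p = 0.00639), while with PMA the diets stood at -0.20 ± 0.28 SE, edgeR adjusted p = 0.804. In HFD_cont the order of the libraries was that of their summed hair genes, 2318, 1650, 91.0 and 630.0 CPM for replicates 1 to 4, and without the 3 libraries high in hair genes the diet difference was 0.83 with an edgeR adjusted p of 0.207. In HFD_PMA, replicate 1 with 2951 CPM of hair genes did not have the most Serpina9. The part of hair follicle RNA in the Serpina9 values was not tested. Serpina9 shares 72 exon bases with Gm28577.

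Serpina12 (chromosome 12, 104028769-104044443, minus strand), or vaspin, an adipokine that inhibits kallikrein-related peptidase Klk7 and is also made in skin, had 98.3, 92.8, 158 and 189 CPM in HFD_PMA, against 265, 324, 370.1 and 338 CPM in HFD_cont. In ND mice it had 225, 178, 217 and 239 CPM in ND_PMA, against 391, 409, 308 and 256 CPM in ND_cont. It fell with PMA with a log2 fold change of -1.27 ± 0.20 (SE; edgeR adjusted p = 0.000291) in HFD mice and -0.67 ± 0.20 SE, edgeR adjusted p = 0.0280 in ND mice, and all PMA libraries lay below all untreated ones of the same diet. The ND call ended in 6 of 25 alternatives, the HFD call in none. Between the diets in PMA-treated skin the value was -0.68 ± 0.20 SE, edgeR adjusted p = 0.0791, just short of a call. Of 7 adipocyte markers, 5 fell with PMA in HFD mice and 6 in ND mice, with summed levels of 226 to 391 CPM in HFD_PMA, 365 to 587 in ND_PMA, 459 to 699 in HFD_cont and 706 to 958 in ND_cont. Of 7 sebaceous gland markers, Far2 and Scd1 fell with PMA on both diets, with sums of 2626 to 3760 CPM in HFD_PMA and 5379 to 7237 in HFD_cont, and of 3390 to 4996 in ND_PMA and 6772 to 9550 in ND_cont. Of 8 suprabasal keratinocyte markers, 5 fell with PMA in HFD mice and 1 rose in ND mice. The part of these cells in the Serpina12 values was not tested.

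Serpinh1 was lower on the high-fat diet in both states of the skin, and Serpine2 in PMA-treated skin. Serpinh1 (chromosome 7, 99345376-99353239, minus strand) had 191, 203, 209 and 162 CPM in HFD_PMA, against 320.2, 450.4, 235 and 272 CPM in ND_PMA. Untreated ears had 133, 121, 122 and 105 CPM in HFD_cont, against 162, 149.8, 263 and 208 CPM in ND_cont. All HFD libraries lay below all ND libraries of the same treatment, with a log2 fold change of -0.74 ± 0.18 (SE; edgeR adjusted p = 0.0364) in PMA-treated and -0.70 ± 0.18 SE, edgeR adjusted p = 0.0356 in untreated skin. PMA raised it with log2 fold changes of 0.67 ± 0.18 SE, edgeR adjusted p = 0.0195 in HFD mice and 0.71 ± 0.18 SE, edgeR adjusted p = 0.0125 in ND mice, so diet and PMA moved it in opposite directions. Each of the 4 calls was lost in some fits that left out 1 library, 10 in PMA-treated and 7 in untreated skin for the diet and 5 and 2 for PMA in HFD and ND mice, and without ND_PMA replicate 2, its highest library, the diet value with PMA was -0.48 with an edgeR adjusted p of 0.159. Without the 3 libraries high in hair genes, the diet values were -0.69 (edgeR adjusted p = 0.150) in PMA-treated and -0.77 (edgeR adjusted p = 0.184) in untreated skin, and the PMA value in HFD mice was 0.76 (edgeR adjusted p = 0.119). With the library series as a covariate, the diet value in untreated skin was -0.56, and neither that diet call nor the ND call for PMA held.

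Serpine2 (chromosome 1, 79794197-79861180, minus strand), protease nexin, which inhibits thrombin and urokinase at the cell surface, had 85.5, 83.5, 84.5 and 78.7 CPM in HFD_PMA, against 131, 158, 120.1 and 142 CPM in ND_PMA. Untreated ears had 73.1, 70.3, 94.9 and 84.8 CPM in HFD_cont, against 104, 96.8, 119 and 111 CPM in ND_cont. HFD libraries lay below ND libraries in both states, with a log2 fold change of -0.73 ± 0.12 (SE; edgeR adjusted p = 0.00378) in PMA-treated skin, which held in every alternative, and -0.41 ± 0.12 SE, edgeR adjusted p = 0.0606 in untreated skin, which missed the threshold. Serpinf1, which binds collagen and restrains vessel growth, had 93.2, 102, 148 and 118 CPM in HFD_PMA, against 182, 222, 150.0 and 147 CPM in ND_PMA. Untreated ears had 130.5, 158, 184 and 156 CPM in HFD_cont, against 215, 232, 230.4 and 159 CPM in ND_cont. Its diet values were -0.60 ± 0.17 SE, edgeR adjusted p = 0.0598 and -0.41 ± 0.16 SE, edgeR adjusted p = 0.198, neither called. Serping1, the inhibitor of complement C1 and of plasma kallikrein, had 207, 243, 272 and 222 CPM in HFD_PMA, against 309, 429, 269 and 271 CPM in ND_PMA. Untreated ears had 267, 312, 276 and 249.8 CPM in HFD_cont, against 319, 334, 377 and 286 CPM in ND_cont. Its diet values were -0.44 ± 0.14 SE, edgeR adjusted p = 0.114 and -0.25 ± 0.14 SE, edgeR adjusted p = 0.389, neither called.

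Fibroblast markers moved with these genes. Of 8, 3 were lower in HFD_PMA than in ND_PMA (Col1a1, Col1a2 and Col3a1) and 4 lower in HFD_cont than in ND_cont (the same 3 and Lum), and the summed list lay between 3968 and 6224 CPM in HFD_PMA and 6580 and 9176 in ND_PMA, and between 5813 and 6848 in HFD_cont and 8960 and 11325 in ND_cont. With PMA 2 of 8 fell on either diet and none rose, whereas Serpinh1 rose. Of 5 tested chondrocyte markers, 4 were also lower in HFD_PMA than in ND_PMA (Acan, Col2a1, Col9a1 and Comp), with a median of -0.91. In untreated skin none were called between the diets, though all 5 had an unadjusted edgeR p below 0.05, with a median of -0.65. The part of fibroblast or cartilage RNA in the diet values of Serpinh1 and Serpine2 was not tested. The clotting serpins Serpinc1 (antithrombin), Serpind1 (heparin cofactor) and Serpinf2 (antiplasmin) were tested at group means of at most 1.93 CPM (Serpind1 in ND_PMA) and were called in no comparison, and at such levels only large differences could be seen. Of the 8546 exon bases of Serpinc1, 2942 overlap Zbtb37 on the other strand, so its counts may hold reads of Zbtb37.

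The partners of Serpinh1 in making collagen were read from a list of 15 genes of collagen chains and endoplasmic reticulum enzymes. Counts from this and the following lists stand beside the shares of all genes tested that were called. These were 2.20% and 3.93% for the diet in PMA-treated and untreated skin, and 11.9% and 12.9% for PMA in HFD and ND mice. In PMA-treated skin 4 were lower in HFD_PMA, Col1a1 (-0.94 ± 0.23 SE, edgeR adjusted p = 0.0345), Col1a2 (-0.90 ± 0.18 SE, edgeR adjusted p = 0.0103), Col3a1 and Col5a2 (-0.91 ± 0.17 SE, edgeR adjusted p = 0.00770), and none higher. In untreated skin 6 were lower in HFD_cont and Ppib higher, again with the chains Col1a1 (-1.12 ± 0.23 SE, edgeR adjusted p = 0.00830) and Col1a2 (-0.86 ± 0.17 SE, edgeR adjusted p = 0.00728) among the lower. With PMA, 3 rose and 1 fell on either diet, the 3 being Hspa5, P4ha2 and P4hb in HFD mice and Hspa5, P4hb and Ppib in ND mice. Hspa5, a chaperone, had 874 ± 135 CPM in HFD_PMA, against 462 ± 59.6 CPM in HFD_cont, and 919.7 ± 85.4 CPM in ND_PMA, against 458 ± 31.1 CPM in ND_cont. Col1a2 fell on both diets (-0.67 ± 0.17 SE, edgeR adjusted p = 0.0154 in HFD mice and -0.62 ± 0.17 SE, edgeR adjusted p = 0.0206 in ND mice). Medians over the list were -0.35 and -0.49 for the diet in PMA-treated and untreated skin, and 0.04 and 0.06 for PMA in HFD and ND mice.

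The proteases that serpins can meet in epidermis were read next. Of 17 epidermal serine proteases, 8 rose and 1 (Prss8) fell with PMA in HFD mice, 11 rose with PMA in ND mice, 5 were higher in HFD_PMA than in ND_PMA and 10 higher in HFD_cont than in ND_cont. Klk6 had 362 ± 95.9 CPM in HFD_PMA, against 66.2 ± 8.46 CPM in HFD_cont, and 204 ± 19.1 CPM in ND_PMA, against 11.1 ± 4.53 CPM in ND_cont. It was also higher in HFD_cont than in ND_cont (2.56 ± 0.22 SE, edgeR adjusted p = 1.41e-06). Klk7, the target of Serpina12, rose with PMA (0.53 ± 0.11 SE, edgeR adjusted p = 0.00325 in HFD mice and 1.05 ± 0.11 SE, edgeR adjusted p = 3.34e-06 in ND mice) where Serpina12 fell. It was also called higher in HFD_cont than in ND_cont, where Serpina12 stood at -0.07 ± 0.19 SE, edgeR adjusted p = 0.912. Prss27 rose with log2 fold changes of 2.67 ± 0.29 SE, edgeR adjusted p = 7.50e-06 in HFD and 3.69 ± 0.31 SE, edgeR adjusted p = 1.50e-07 in ND mice. The median log2 fold changes of the list were 0.78 and 1.27 for PMA in HFD and ND mice, and 0.61 and 1.05 for the diet in PMA-treated and untreated skin.

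Papain-like cathepsins, which Serpina3g and human SERPINB3 can inhibit, also changed with PMA. Of 10, Ctsb, Ctsc, Ctsl and Ctsz rose and Ctsf and Ctsk fell on both diets. Ctsl had 973 ± 108 CPM in HFD_PMA, against 537 ± 41.6 CPM in HFD_cont, and 876 ± 173 CPM in ND_PMA, against 349 ± 107 CPM in ND_cont. In HFD_cont Ctsl was higher than in ND_cont (0.62 ± 0.17 SE, edgeR adjusted p = 0.0493), and no cathepsin was called between the diets with PMA (1 had an unadjusted edgeR p below 0.05), where Serpinb3a was higher and Serpina3g lower in HFD_PMA. Of 12 tested genes of plasminogen activation and coagulation, 3 rose with PMA in HFD mice (F10, Plaur and Thbd) and F3 fell, only F10 was called with PMA in ND mice, and none were called between the diets, where 4 in PMA-treated and 2 in untreated skin had an unadjusted edgeR p below 0.05. Plaur, the urokinase receptor, had 28.2 ± 16.05 CPM in HFD_PMA, against 7.53 ± 2.65 CPM in HFD_cont, while its ligand Plau, the target of Serpinb2, stood at -0.30 ± 0.26 SE, edgeR adjusted p = 0.546, not called. None of 5 tested leukocyte and mast cell proteases and none of 8 tested genes of complement C1 and the contact system were called by edgeR in any comparison, and at most 1 of each list had an unadjusted p below 0.05 in a comparison. Gzmb, the granzyme that Serpina3n and Serpinb9 can inhibit, was at 1.22 ± 0.98 SE, edgeR adjusted p = 0.503 with PMA in HFD mice, and C1s1, a target of Serping1, at 0.23 ± 0.17 SE, edgeR adjusted p = 0.458.

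Other protease inhibitors of skin that are not serpins were read for comparison. With PMA, Slpi, which inhibits neutrophil elastase, had 101 ± 47.1 CPM in HFD_PMA, against 8.67 ± 5.31 CPM in HFD_cont, and 57.7 ± 11.3 CPM in ND_PMA, against 1.57 ± 0.707 CPM in ND_cont. Stfa1, a cysteine protease inhibitor, rose too (4.73 ± 0.71 SE, edgeR adjusted p = 0.000188 in HFD mice and 6.64 ± 0.95 SE, edgeR adjusted p = 8.10e-05 in ND mice). Itih5 fell on both diets (-1.14 ± 0.19 SE, edgeR adjusted p = 0.000443 and -0.77 ± 0.18 SE, edgeR adjusted p = 0.00740). Spint2, an inhibitor of membrane serine proteases, was higher on the high-fat diet in both states (0.51 ± 0.13 SE, edgeR adjusted p = 0.0358 in PMA-treated and 0.66 ± 0.13 SE, edgeR adjusted p = 0.00459 in untreated skin). Of the 15 tested, 2 rose and 2 fell with PMA in HFD mice and 4 rose and 2 fell in ND mice, beside 11.9% and 12.9% of all genes called.

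The 28 members that did not pass the filter averaged at most 0.661 CPM (Serpinb1c) over the 16 libraries, and 9 of them had 0 counts in every library. They were Serpina1a to Serpina1f, Serpina3a, Serpina3k, Serpina5, Serpina6, Serpina7, Serpina10, Serpina11 and Serpina16 of clade A, among them the liver genes of alpha-1-antitrypsin (Serpina1a to Serpina1e) and of the corticosteroid and thyroxine carriers (Serpina6 and Serpina7), the clade B genes Serpinb1b, Serpinb1c, Serpinb3c, Serpinb3d, Serpinb6e, Serpinb9c to Serpinb9g and the protein-coding entry of Serpinb10 (0 counts), and Serpine3, Serpini1 (neuroserpin) and Serpini2. The sum of Serpina1a to Serpina1e averaged 1.11 ± 0.375 CPM in HFD_PMA, 0.727 ± 0.480 in ND_PMA, 1.32 ± 1.22 in HFD_cont and 0.591 ± 0.560 in ND_cont (SD, n = 4 each), with overlapping libraries. At this depth 1 CPM is between 7.98 and 15.5 counts in a library, and these members were not tested. Serpina3k, chosen after its values were seen, had 35, 23, 12 and 8 counts in ND_PMA, against 0, 8, 0 and 0 counts in ND_cont, with no overlap in CPM.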

How the data were processed

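RNA of whole mouse ear skin was extracted with TRIzol and RNeasy Micro columns, made into SMART-Seq2 libraries from 2 ng and sequenced as paired reads of 151 bases, per the labels' protocols; such libraries mark neither strand nor molecules. The authors deposited whole-number counts per gene, with gene lengths; the submitters' processing notes name STAR 2.3, featureCounts 1.5, GRCm38 and mm10, and no annotation release was found in the labels. From these counts, edgeR 4.0.16 (R 4.3.3) fitted 1 robust quasi-likelihood model over the 4 groups with TMM scaling, on 17604 of 48440 genes that passed filterByExpr (minimum count 10, minimum total 15). Adjusted p-values are Benjamini-Hochberg over all tested genes, SE is the size of the log2 fold change over the square root of F, and 95% intervals assume a normal distribution of that SE. The fitting was tested on simulated data. Reads of a gene and of a partner overlapping on the other strand cannot be told apart. Positions, exons and coding bases came from GENCODE M21, and promoters from RefSeq (GRCm38.p6), with 53 of the 62 members matched. Total counts were 7739487 to 15571389, and no 2 libraries of a group agreed within counting noise (lowest chi-square per degree of freedom 10.0).

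Values were given in every library for the members called in any comparison and those averaging 50 CPM or more, and listed genes were named at 5 CPM or more; F10, Gzmb and genes singled out beyond that were chosen after their values were seen. Members and lists were chosen with earlier results of these data known. Alternatives were other scalings (RLE and upper quartile), other filters, DESeq2 1.42.0, the replicate block, the library series, only the libraries compared, and leaving out libraries. The values of 1 tested member are not reported here, and it stays in the fits and counts.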

Additional observations from a re-analysis of the deposited data

Results flagged for a closer look

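Of the 92 groups of 4 libraries examined for 23 Serpin genes, 4 (4.35%) held 1 library that stood far from the other 3 by Dixon's test, and chance gives about 1 in 20. Serpina3b had 11.3 CPM in ND_PMA replicate 4, against 3.09 to 4.33 CPM in the other ND_PMA libraries, and 17.5 CPM in ND_cont replicate 3, against 28.3 to 30.3 CPM in the other ND_cont libraries. Serpina3f had 1.82 CPM in HFD_cont replicate 3, against 0 to 0.232 CPM in the other HFD_cont libraries. Serpinb5 had 533 CPM in ND_PMA replicate 2, against 932 to 1008 CPM in the other ND_PMA libraries, and that library also had the highest Serpinh1 level (450.4 CPM) and the highest summed fibroblast markers of its group (9176 CPM).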

How the results depend on the processing

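Of the 32 calls on 16 Serpin genes, 11 held in every alternative tried (Serpina12, Serpina3b, Serpina3n, Serpina9, Serpinb1a, Serpinb2 and Serpinb3a for PMA in HFD mice, Serpina3n and Serpina9 for PMA in ND mice, Serpina3g and Serpine2 for the diet in PMA-treated skin), 21 were lost in some, 15 of them on leaving out 1 library, and 1 reversed (Serpina3f for PMA in ND mice, -1.84 with the library series as a covariate). Members called with that covariate were 1 for the diet in untreated skin, 2 for PMA in ND mice and 1 for the interaction. The covariate rests on HFD_cont replicate 1 against the other HFD_cont libraries, so the reversal and the calls with it lean on that library. DESeq2 called 1 for the interaction, and a fit of only the 8 libraries compared called 3 for the diet in PMA-treated skin. Without the 3 libraries high in hair genes, an alternative chosen after seeing the data, 3, 0 and 7 were called for the diet in PMA-treated skin, the diet in untreated skin and PMA in HFD mice. The causes of these losses were not tested, and fits with fewer libraries have less power by construction. Leaving out 1 library at a time gave 2 to 7 members for the diet in PMA-treated skin (3 without HFD_PMA replicate 1 and 2 without replicate 2), 1 to 5 in untreated skin (2 without HFD_cont replicate 1, 1 without replicate 2, 2 without replicate 3 and 1 without ND_cont replicate 4), 8 to 12 for PMA in HFD mice, 6 to 10 in ND mice (6 without ND_cont replicate 2) and 0 for the interaction. DESeq2 kept 32 of 32 calls, and another scaling of library size (RLE or upper quartile) kept 30 of 32. The strict filter on low counts gave no value for Serpina3f and Serpina3j. Low depth limits the members with a few counts per library.

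Replicate numbers did not pair the libraries: correlations of same-numbered libraries ran from -0.067 to 0.202, and at most 2 of 4 pairs in a comparison passed 0.1. With the replicate number as a block, 5 and 4 members were called for the diet in PMA-treated and untreated skin, 11 and 11 for PMA in HFD and ND mice, and 0 for the interaction.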

Other observations

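Serpina3h, a transcribed pseudogene of the Serpina3 cluster and so not a member, fell with PMA as Serpina3b did. It averaged 31.9 ± 7.22 CPM in HFD_PMA and 56.3 ± 14.5 CPM in HFD_cont, and 40.9 ± 4.53 CPM in ND_PMA and 73.3 ± 5.69 CPM in ND_cont (SD, n = 4 each). The log2 fold changes were -0.82 ± 0.18 (SE; edgeR adjusted p = 0.00471) in HFD mice and -0.84 ± 0.18 (SE; edgeR adjusted p = 0.00316) in ND mice, with no overlap between libraries. Between the diets it stood at -0.36 (edgeR adjusted p = 0.345) in PMA-treated and -0.38 (edgeR adjusted p = 0.283) in untreated skin, neither called.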
